A study of Mus musculus with 16 samples.

Results

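The comparison described here sets neurons that expressed an unmutated short hairpin RNA against neurons that expressed the same hairpin with 2 point mutations, over all expressed genes. It rests on 8 of the 16 libraries of the series, the 4 labelled shRNA and the 4 labelled shRNA_2bp, and on the 19479 genes that passed the expression filter out of 55335 in the count table. All cultures were primary forebrain neurons of perinatal mice, and all, the 4 empty-vector (Empty_Vector) libraries shown beside them included, had been transduced with a lentiviral vector. Mouse strain, sex, culture age and viral dose are not given in the labels used here, nor are the hairpin sequence, the positions of its mutations or the transcript it was designed against. The labels number the 4 libraries of a group and do not say whether they came from separate cultures, so the spread behind every p-value is that between these libraries and may be technical.

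A short hairpin RNA enters the cell's own microRNA pathway. Dicer trims it to a short duplex, one strand of which is loaded into an Argonaute protein and guides it to transcripts. Near-complete pairing leads to cleavage of the transcript, while pairing of the guide's seed, the bases near its 5′ end, to a 3′ untranslated region (UTR) is enough for partial repression, as with natural microRNAs. A mutated hairpin is commonly used as a control for effects of the vector, and it carries a guide of its own.

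Sequencing depth, as total counts, was 36143806 to 41152791 in the unmutated libraries, 41618901 to 49824569 in the 2-mutation libraries and 33795369 to 46187568 in the empty-vector libraries. In a principal component analysis of the 8 hairpin libraries, the first component held 74.4% of the variance and placed the unmutated libraries between −57.4 and −53.5 and the 2-mutation libraries between 53.8 and 55.8. Gm26917, a locus where ribosomal RNA reads pile up, made up 7.61 ± 0.31% of all counts in libraries with the unmutated hairpin, 11.15 ± 0.24% with the 2-mutation hairpin and 6.17 ± 0.22% with the empty vector (SD, n = 4 each). Neuronal transcripts were abundant in every library. Tubb3, which encodes the neuronal β-tubulin, had 549 to 684 counts-per-million (CPM, scaled with TMM factors) with the unmutated hairpin, 1202 to 1389 CPM with the 2-mutation hairpin and 884 to 1020 CPM with the empty vector.

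The 2 hairpins, which share most of their sequence, left the neurons with different transcriptomes. By edgeR's quasi-likelihood test at a Benjamini-Hochberg adjusted p below 0.05, 12215 genes differed (62.7% of those tested), 6070 higher (31.2%) and 6145 lower (31.5%) with the unmutated hairpin. Differences of at least 2-fold were less evenly divided, with 2215 genes higher (11.4%) and 1066 lower (5.47%) with the unmutated hairpin, 3281 in all (16.8%). At 4-fold or more there were 539 higher and 204 lower. For 11555 genes (59.3%) the 4 unmutated libraries and the 4 2-mutation libraries did not overlap. Genes called had a median absolute log2 fold change of 0.61. Scaling by library size alone, in place of TMM, called 7349 genes higher and 4939 lower and moved the median log2 fold change of all genes to 0.14, against 0.02 with TMM.

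The genes that were at least 2-fold higher with the unmutated hairpin had a median level of 1.26 on the log2 CPM scale with the unmutated hairpin, −0.35 with the 2-mutation hairpin and 0.95 with the empty vector. Those at least 2-fold lower had a median level of 0.31 with the unmutated hairpin, 1.89 with the 2-mutation hairpin and 0.57 with the empty vector. These medians describe genes chosen by the same comparison and were not tested.

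**Figure D1:**
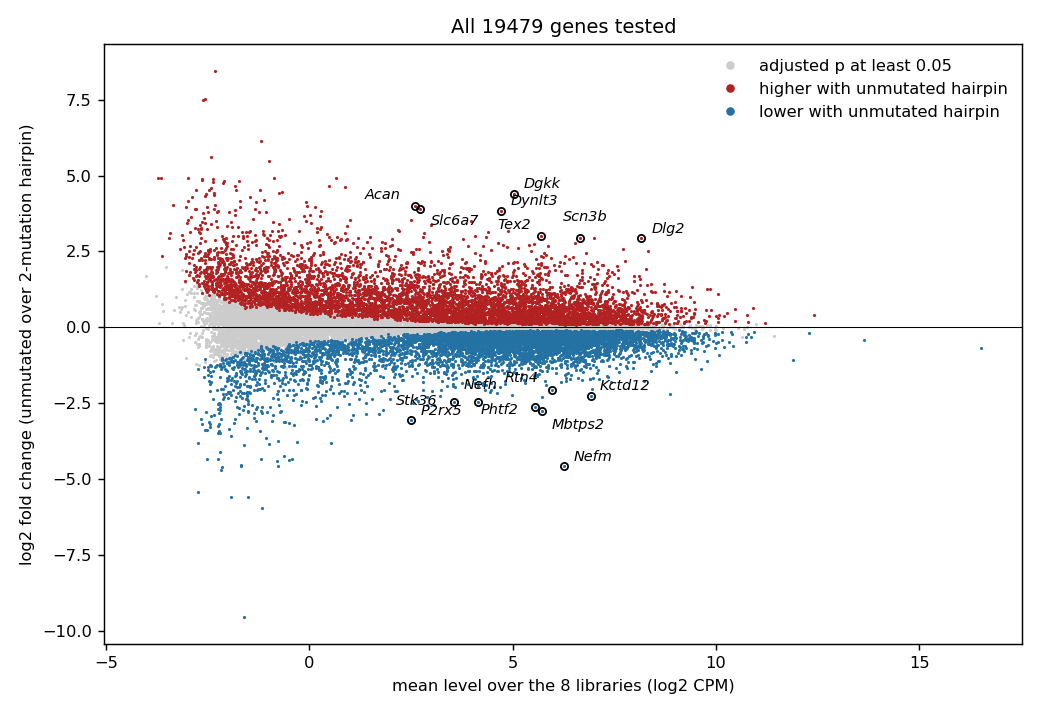
Log2 fold change of each tested gene (unmutated over 2-mutation hairpin) against its mean log2 CPM over the 8 libraries. Red and blue points passed an adjusted p below 0.05, grey points did not, and circles mark named genes such as Dgkk (4.41) and Nefm (−4.58).

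Each sequence below is shown because the fold changes of this comparison moved with its presence in the 3′ UTR. In a regression of the log2 fold change on presence of a 7-mer, with UTR length and GC content as terms, over 14246 genes with an annotated 3′ UTR of at least 50 bases, 15900 7-mers were scanned on the sense strand. The first had the highest coefficient of all 15900. The coefficients describe the fold changes they were chosen on, so no test is given. The second had the lowest coefficient among those held by at least 500 UTRs and the seventh lowest of all, a minimum of UTRs that was chosen after the coefficients were seen.
highest coefficient: ATGACAA
low coefficient: ATGAAAC

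The 2 words share their first 4 letters and differ by 2 substitutions, A5C and C7A, with positions counted from the 5′ end, the low-coefficient word giving the first base and the high-coefficient word the second. ATGACAA was present in 1486 of the 14246 UTRs (10.4%) and ATGAAAC in 1599 (11.2%). Neither word was looked for on the antisense strand, and a match is a description of the letters and not a site of binding.

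Transcripts that differed strongly and held these words are shown as 29 bases of the annotated 3′ UTR around the word, which is in capitals, read 5′ to 3′ on the transcript (GRCm38, GENCODE vM21). The first 5 hold ATGACAA and were higher with the unmutated hairpin. The rest hold ATGAAAC and were lower with it. They are examples that go with the sign of each coefficient, and many genes with a word did not. Of genes with ATGACAA, 854 were called higher and 317 lower. Of genes with ATGAAAC, 533 were called higher and 724 lower. Ago2 (log2 fold change 2.60), which holds both words, is not among the examples.
Dynlt3, chrX:9655869-9655897, minus strand: taatgtgctagATGACAAgtgtgcaatat
Dynlt3, chrX:9654519-9654547, minus strand: gaataactctaATGACAAgaatgcaaaga
Tex2, chr11:106502342-106502370, minus strand: cccattaaaacATGACAAattatttgacc
Etv5, chr16:22383135-22383163, minus strand: ggaccgagtgtATGACAAtctgcgttgat
Rac1, chr5:143506749-143506777, minus strand: tcagccctaaaATGACAAagccttcttaa
Rtn4, chr11:29743009-29743037, plus strand: ggttttagttcATGAAACagcttaagaac
Rtn4, chr11:29744089-29744117, plus strand: taaaactgcaaATGAAACttttaaaaatt
Mbtps2, chrX:157567166-157567194, minus strand: gtggtatttttATGAAACttgctttcagc
Mbtps2, chrX:157566863-157566891, minus strand: aaggtgtttttATGAAACttgctttcaac
Phtf2, chr5:20759784-20759812, minus strand: ttaagaattacATGAAACaatgtttttgt

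Presence of ATGACAA had a coefficient of 0.41 on the log2 fold change (0.41 also without the GC term), and presence of ATGAAAC a coefficient of −0.18 (−0.18 without the GC term). Genes with 0 copies of ATGACAA had a median log2 fold change of −0.08 (12760 genes), those with 1 copy 0.31 (1291 genes), those with 2 copies 0.65 (168 genes) and those with 3 or more 0.73 (27 genes). The medians rose with the number of copies, and the quartiles widened beside them, from −0.43 to 0.37 with 0 copies and from 0.38 to 1.65 with 3 or more. The share of genes called higher with the unmutated hairpin was 30.9% with 0 copies, 56.0% with 1, 64.3% with 2 and 85.2% with 3 or more. These shares compare with 33.7% over all 14246 genes. The medians and shares by copies, here and below, were not adjusted for UTR length, and longer UTRs have more room for copies.

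ATGAAAC gave a smaller difference. Medians were −0.03 with 0 copies (12647 genes), −0.10 with 1 (1368 genes), −0.17 with 2 (191 genes) and 0.15 with 3 or more (40 genes). The group with 3 or more copies thus lay on the other side of 0. Genes called lower with the unmutated hairpin made up 38.7% with 0 copies, 45.2% with 1, 47.1% with 2 and 37.5% with 3 or more.

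**Figure D2:**
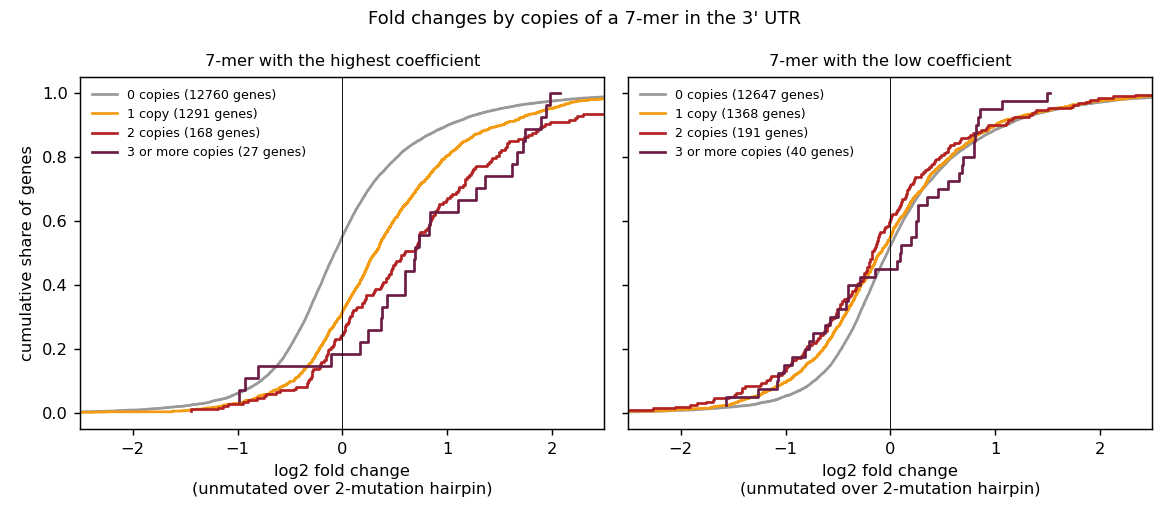
Cumulative share of genes by log2 fold change (unmutated over 2-mutation hairpin), for genes with 0, 1, 2 or 3 and more copies in the 3′ UTR of the word with the highest coefficient (left) and of the word with the low coefficient (right). On the left the curves move to the right with copies (medians −0.08, 0.31, 0.65 and 0.73), and on the right they stay close together.

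The same regression in each library, on log2 CPM centred over the 12 libraries, gave the level of genes with each word in each group. For ATGACAA the coefficient was between 0.11 and 0.14 in the 4 unmutated libraries, between −0.30 and −0.27 in the 4 2-mutation libraries and between 0.15 and 0.16 in the 4 empty-vector libraries. The 2-mutation libraries stood apart and the unmutated libraries lay near the empty vector. For ATGAAAC it was between −0.15 and −0.12 in the unmutated libraries, between 0.04 and 0.06 in the 2-mutation libraries and between 0.08 and 0.09 in the empty-vector libraries. By these coefficients the unmutated libraries stood apart, and the 2-mutation libraries lay near the empty vector. The medians by copies did not all follow this. With 1 copy of ATGAAAC the median log2 fold change over the empty vector was −0.13 for the unmutated hairpin and −0.02 for the 2-mutation hairpin. With 2 copies it was −0.25 for the unmutated and −0.23 for the 2-mutation hairpin, and with 3 or more −0.46 for the unmutated and −0.42 for the 2-mutation hairpin, so that with more than 1 copy both hairpins lay below the empty vector by nearly the same amount.

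**Figure D3:**
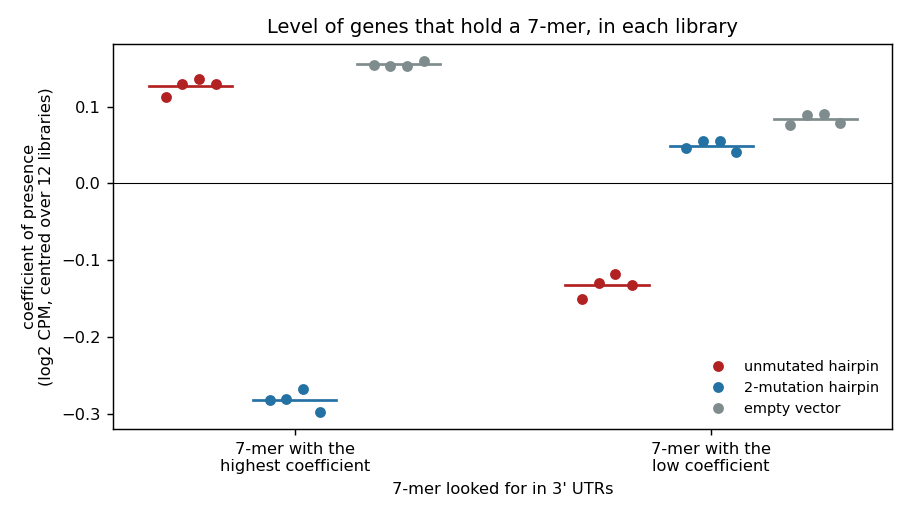
Regression coefficient of presence of each word in the 3′ UTR, in each library (points) with the mean of its group (lines), on log2 CPM centred over the 12 libraries. The 2-mutation libraries lie between −0.30 and −0.27 for the word with the highest coefficient, and the unmutated libraries lie between −0.15 and −0.12 for the other.

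Words in the coding sequence had smaller differences. Genes with ATGACAA in the coding sequence and none in the 3′ UTR had a median log2 fold change of 0.07 (2279 genes), against −0.11 for genes with it in neither (10481 genes). For ATGAAAC the medians were −0.07 (1434 genes) and −0.03 (11213 genes). Among UTRs of at most 2000 bases, the median was 0.39 with ATGACAA (523 genes) and −0.09 without it (9312 genes). It was −0.23 with ATGAAAC (558 genes) and −0.06 without it (9277 genes).

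In medians not adjusted for UTR length, seed matches of natural neuronal microRNAs went with smaller differences than ATGACAA. Over UTRs of all lengths, these differences were about as large as that of ATGAAAC. A match was the complement of bases 2 to 8 of the microRNA, or of bases 2 to 7 followed by an A. Each word, in contrast, is an exact 7-mer. The median log2 fold change was 0.35 with at least 1 copy of ATGACAA and −0.08 without it, and −0.11 with at least 1 copy of ATGAAAC and −0.03 without it. Among UTRs of at most 2000 bases the medians for ATGAAAC were further apart, −0.23 with it and −0.06 without it. In these shorter UTRs the medians were −0.02 with a miR-153-3p match and −0.08 without. For miR-100-5p they were −0.16 with a match and −0.07 without. For 21 microRNAs with a mature sequence in the RefSeq table (GRCm38.p6), genes with a seed match had a median log2 fold change that differed from that of genes without one by −0.05 (miR-100-5p, 334 genes with a match) to 0.11 (miR-153-3p, 2267 genes). The mature sequences of these 2, which bound the range, are given with the seed, bases 2 to 8, in capitals. That of miR-9-5p, an abundant neuronal microRNA with a difference of 0.09, inside the range, is given too.
mmu-miR-153-3p: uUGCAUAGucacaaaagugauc
mmu-miR-9-5p: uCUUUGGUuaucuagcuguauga
mmu-miR-100-5p: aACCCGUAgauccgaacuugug

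Rtn4, which encodes the reticulon Nogo, an inhibitor of axon growth, was low with both hairpins and lower with the unmutated one. On chromosome 11 (29692947 to 29744331, plus strand, GRCm38), Rtn4 (ENSMUSG00000020458.16) had 30.9, 31.3, 29.9 and 29.9 CPM with the unmutated hairpin, against 130.3, 126, 128 and 122 CPM with the 2-mutation hairpin and 837 to 891 CPM with the empty vector. The 3 groups did not overlap, and the 2-mutation libraries lay between the other two. Unmutated over 2-mutation hairpin, the log2 fold change was −2.05 ± 0.04 (SE; edgeR adjusted p = 4.18e-20), a 4.15-fold lower level. Of the other reticulon genes, Rtn3 (log2 fold change −0.60) and Rtn2 (−0.31) were lower with the unmutated hairpin and Rtn1 did not pass (−0.04, edgeR adjusted p = 0.418). The Nogo receptor gene Rtn4r was higher (0.86), and its homologues split, Rtn4rl1 higher (0.26) and Rtn4rl2 lower (−0.26). Its co-receptor genes split too, Lingo1 (−0.52) and Ngfr (−1.16) lower and Tnfrsf19 (0.67) higher. In all, 4 of the 11 measured genes of this list were higher and 6 lower.

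Dynlt3, a light chain gene of the dynein motor (chromosome X, 9654267 to 9663003, minus strand), was among the genes furthest above the 2-mutation hairpin. It had 95.7, 102, 100.9 and 100.3 CPM with the unmutated hairpin, against 6.68, 6.53, 7.95 and 6.74 CPM with the 2-mutation hairpin and 74.3 to 79.0 CPM with the empty vector. The log2 fold change was 3.84 ± 0.06 (SE; edgeR adjusted p = 3.10e-22), a 14.3-fold difference. The 2-mutation libraries were the low ones, and the unmutated libraries lay above the empty vector. Of the other 15 measured dynein and dynactin genes, 2 were higher and 10 lower, among them Dctn4 (−0.82) and Dync1i2 (−0.35).

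By the naming rule, Dgkk came first among the 15 highest log2 fold changes, taken only from genes whose mean log2 CPM reached 2. This diacylglycerol kinase gene lies on chromosome X (6779306 to 6948363, plus strand). It had 130.5, 137, 191 and 148 CPM with the unmutated hairpin, against 6.02, 7.49, 8.47 and 6.72 CPM with the 2-mutation hairpin and 21.9 to 31.3 CPM with the empty vector. The log2 fold change was 4.41 ± 0.19 (SE; edgeR adjusted p = 5.32e-11). The groups did not overlap, and the empty vector lay between them. Its 3′ UTR held neither word.

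Acan, which encodes aggrecan, a proteoglycan of perineuronal nets, came second of the same 15. It had 17.5, 16.4, 53.5 and 15.8 CPM with the unmutated hairpin, against 1.43, 1.46, 1.83 and 1.76 CPM with the 2-mutation hairpin and 13.4 to 17.5 CPM with the empty vector. One unmutated library, replicate 3, was higher than the other three added together, and the log2 fold change, 3.99 ± 0.50 (SE; edgeR adjusted p = 1.02e-05), became 3.35 without it. The 2-mutation libraries were the low ones.

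The other genes among the 15 furthest above the 2-mutation hairpin were Slc6a7 (3.90), a proline transporter of the brain, Cyp26b1 (3.53), which breaks down retinoic acid, Abca8a (3.52), Mtfp1 (3.37), a mitochondrial fission protein, Slc7a11 (3.21), the cystine transporter, Acot2 (3.18), Etv5 (3.17), a transcription factor downstream of ERK, Nos1 (3.12), the neuronal nitric oxide synthase, Cab39l (3.09), Tex2 (3.003), Zbtb46 (2.98) and Rreb1 (2.98). Slc6a7, Mtfp1 and Nos1 were below the empty vector in every library of both hairpins. In the other nine the unmutated libraries overlapped the empty-vector range (Rreb1) or lay above it. Slc6a7 had 23.0 to 27.5 CPM with the unmutated hairpin, 1.64 to 1.74 CPM with the 2-mutation hairpin and 28.4 to 33.0 CPM with the empty vector. Of the 15, Dynlt3, Tex2 and Etv5 held ATGACAA, and Nos1 held ATGAAAC.

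Some abundant genes of the synapse and of cell signalling were also several-fold apart. Dlg2, which encodes the postsynaptic scaffold PSD-93 (chromosome 7, 90476672 to 92449247, plus strand), had 751, 778, 806 and 806 CPM with the unmutated hairpin, against 106, 101, 106 and 97.9 CPM with the 2-mutation hairpin and 769.6 to 839 CPM with the empty vector. Its log2 fold change was 2.93 ± 0.04 (SE; edgeR adjusted p = 2.44e-22), and the 2-mutation libraries were low. Scn3b, a sodium channel β subunit gene, had 282 to 285 CPM with the unmutated hairpin, against 36.1 to 37.0 CPM with the 2-mutation hairpin and 244 to 259 CPM with the empty vector (log2 fold change 2.96 ± 0.04). Rac1, a small GTPase gene of actin dynamics, had 234 to 249 CPM with the unmutated hairpin, against 34.0 to 37.5 CPM with the 2-mutation hairpin and 226 to 239 CPM with the empty vector (log2 fold change 2.77 ± 0.05). The unmutated libraries overlapped the empty vector for Dlg2 and Rac1 and lay above it for Scn3b.

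**Figure D4:**
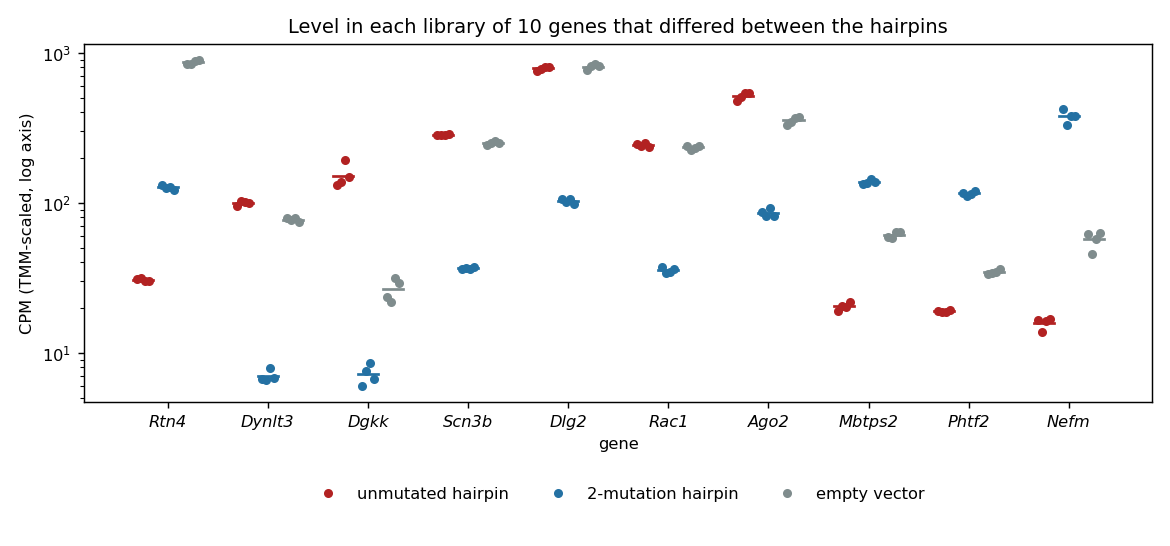
CPM of 10 genes in each library (points) with the mean of its group (lines), on a log axis, for the unmutated hairpin (left of each trio), the 2-mutation hairpin and the empty vector. The 10 genes were picked with their values known, among genes that differed. The 2 hairpins do not overlap for any of them, nor for 59.3% of all genes tested. The 2-mutation libraries of Dgkk, Dynlt3, Scn3b, Dlg2, Rac1 and Ago2 lie below both other groups.

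Nefm, which encodes the medium neurofilament, came first among the 15 lowest log2 fold changes by the same rule. Nefm (ENSMUSG00000022054.11; chromosome 14, 68082590 to 68124846, minus strand) had 16.5, 13.8, 16.3 and 16.8 CPM with the unmutated hairpin, against 423, 331, 377 and 379.8 CPM with the 2-mutation hairpin and 45.6 to 62.9 CPM with the empty vector. The log2 fold change was −4.58 ± 0.19 (SE; edgeR adjusted p = 5.67e-11). The groups did not overlap, with the unmutated libraries below the empty vector and the 2-mutation libraries above it. Exons of Nefl lie opposite those of Nefm, and whether the counting used strand is not given in the sources used here. Of the 7 measured neuronal intermediate filament genes 6 were lower with the unmutated hairpin, including Nefh (−2.45), Ina (−0.83), Nefl (−0.68) and Vim (−0.76). Peripherin, Prph, was higher (2.25).

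Mbtps2, which encodes the site-2 protease that releases membrane-bound transcription factors (chromosome X, 157535371 to 157598715, minus strand), had 19.0, 20.4, 20.3 and 21.9 CPM with the unmutated hairpin, against 133, 135, 144 and 138 CPM with the 2-mutation hairpin and 58.1 to 64.1 CPM with the empty vector. The log2 fold change was −2.75 ± 0.05 (SE; edgeR adjusted p = 8.12e-21). Phtf2, which holds 1 copy of ATGAAAC, had 18.5 to 19.2 CPM with the unmutated hairpin, against 111 to 119 CPM with the 2-mutation hairpin and 33.4 to 36.1 CPM with the empty vector. Both genes had the unmutated libraries below and the 2-mutation libraries above the empty vector.

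The rest of the 15 furthest below were P2rx5 (−3.06), an ATP-gated channel gene, Dnah1 (−2.56), Stk36 (−2.45) and Ccdc40 (−2.41), of motile cilia, Cnn2 (−2.55), Flnc (−2.50) and Tagln2 (−2.35), of the actin cytoskeleton, Nefh (−2.45), Clmp (−2.31), an adhesion molecule gene, Gtse1 (−2.30), Kctd12 (−2.26), a GABA-B receptor auxiliary subunit gene, and Ccdc80 (−2.26). Kctd12 held 1 copy of ATGACAA and 2 of ATGAAAC. P2rx5 had 1.82 to 2.08 CPM with the unmutated hairpin, 15.8 to 16.8 CPM with the 2-mutation hairpin and 1.12 to 1.68 CPM with the empty vector.

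Of the 18 RNA interference genes 12 were higher with the unmutated hairpin and 5 lower (median log2 fold change 0.35), beside 31.2% higher and 31.5% lower over all genes tested (median 0.02). Of 14470 protein-coding genes, 4868 were higher and 5664 lower. Thus 72.8% of protein-coding genes passed, against 62.7% of all genes tested. The counts of every list in this report are to be read beside these shares. Ago2, which encodes the slicing Argonaute, had 476, 510.2, 537 and 542 CPM with the unmutated hairpin, against 86.7, 81.8, 91.9 and 81.3 CPM with the 2-mutation hairpin and 329 to 374 CPM with the empty vector (log2 fold change 2.60 ± 0.05). The groups did not overlap, with the unmutated libraries above and the 2-mutation libraries below the empty vector, and the 3′ UTR held 1 copy of each word. Tnrc6c, a GW182 silencing factor gene, was higher too (0.56). Dicer1, the hairpin-trimming enzyme gene (−0.64), and its partner gene Prkra (−0.78) were lower.

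Genes of the integrated stress response were mostly higher. Of 20 genes of the integrated stress response 19 were higher and 1 lower (median 1.18, against 0.02 over all genes). Asns, asparagine synthetase, had 238 to 274 CPM with the unmutated hairpin, 56.2 to 60.6 CPM with the 2-mutation hairpin and 189.9 to 212 CPM with the empty vector (log2 fold change 2.09). Chac1 (1.64) and Mthfd2 (1.51), a mitochondrial one-carbon enzyme gene, were also higher, and Ddit4, an inhibitor of mTOR signalling, was the member that was lower (−1.04). Of 19 genes of the endoplasmic reticulum chaperone list, 11 were lower and 4 higher (median −0.27), among them Dnajc3 (−1.74), Pdia6 (−1.13), Canx (−0.65) and Edem1 (1.19).

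ERK feedback genes and immediate early genes were mostly higher. Of 16 genes of ERK feedback and output 12 were higher and 2 lower (median 1.04). Spry4, an inhibitor of the pathway, had 44.8, 35.2, 48.4 and 38.8 CPM with the unmutated hairpin, against 8.75, 7.25, 7.50 and 8.27 CPM with the 2-mutation hairpin and 12.9 to 14.2 CPM with the empty vector (log2 fold change 2.39 ± 0.11). The unmutated libraries were above the empty vector and the 2-mutation libraries below it. Spred1 (2.13), Etv1 (2.12) and Spred2 (0.78) were higher as well. Of 24 immediate early genes 14 were higher and 1 lower (median 0.70), among them Egr3 (1.76), Maff (1.78), Fosl2 (0.95) and Ier5 (−1.69).

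Cholesterol synthesis genes were higher in 16 of 24 and lower in 4 (median 0.48). Idi1 (1.94), Fdps (1.90), Lss (1.62) and Sc5d (0.57) had the smallest p of the list. Lss, which closes the sterol ring, had 40.4 to 50.4 CPM with the unmutated hairpin, 12.9 to 15.5 CPM with the 2-mutation hairpin and 69.0 to 81.2 CPM with the empty vector, so that both hairpin groups lay below it.

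Lysosomal genes were lower in 23 of 29 and higher in 4 (median −0.41). Man2b2, a lysosomal mannosidase gene, had 9.73 to 11.2 CPM with the unmutated hairpin, 44.0 to 47.2 CPM with the 2-mutation hairpin and 7.79 to 8.93 CPM with the empty vector (log2 fold change −2.12). The protease gene Ctsl was lower (−0.99), and its 3′ UTR held 3 copies of ATGACAA. Atp6v0d1, a subunit of the proton pump (1.153), and Scarb2 (0.79) were higher. Autophagy genes were lower in 11 of 22 and higher in 6, with Ulk1 (−1.08) and Ulk2 (−0.71) lower and Atg13 (1.56) and Becn1 (0.69) higher.

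Genes of energy metabolism leaned lower, and ribosomal protein genes mostly did not pass. Of 20 glycolysis genes 12 were lower and 6 higher (median −0.34), including Pgam1 (−1.10), Eno1 (−0.86) and Pfkfb3 (−0.87), while Gapdh, which has many pseudogene copies that could share its reads, was higher (0.99). Of 28 oxidative phosphorylation genes 14 were lower and 4 higher (median −0.12), among them Cox6c (−1.54). With library size alone, 12 of them were lower and 9 higher. Of 32 cytosolic ribosomal protein genes 12 were lower, 1 higher (Rpl3, 0.72) and 19 did not pass (median −0.17). The share of ribosomal protein genes lower was near the 31.5% over all genes, and with library size alone 6 were lower.

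Cytoskeletal genes leaned lower. Of 25 genes of actin and dendrite structure 15 were lower and 6 higher (median −0.37), with Map1b (−1.08) and Cfl2 (−0.88) lower and Kalrn (0.69) and Rac1 higher. Of the 14 measured calponins, filamins and transgelins 6 were lower, 2 higher and 6 did not pass, with Flna (−1.33) lower and Tagln3 higher (0.89). The share of them lower was near the 39.4% lower among all genes with an annotated 3′ UTR. Of the 21 measured genes of motile cilia 12 were lower and 3 higher (median −0.61). Cfap52 had 0.0935 to 0.179 CPM with the unmutated hairpin, against 2.23 to 2.79 CPM with the 2-mutation hairpin and 0.0574 to 0.208 CPM with the empty vector.

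Pan-neuronal genes leaned lower, and markers of neuron types went both ways. Of 19 pan-neuronal genes 12 were lower and 2 higher (median −0.17), including Elavl4 (−1.24), Tubb3 (−1.09) and Thy1 (−0.66). The mean log2 CPM of the pan-neuronal list was 8.57 to 8.60 with the unmutated hairpin and 8.79 to 8.85 with the 2-mutation hairpin. It was 8.89 to 8.96 with the empty vector. The count of pan-neuronal genes higher was 5 without unmutated replicate 1, and with library size alone 6 were higher and 8 lower. Of 22 inhibitory neuron genes 11 were lower and 7 higher (median −0.41). The interneuron transcription factor genes Lhx6 (−1.93) and Dlx2 (−1.60) were lower and the calcium-binding protein gene Calb1, whose 3′ UTR held 2 copies of ATGACAA, was higher (1.17). The mean log2 CPM of this list overlapped, at 3.40 to 4.11 with the unmutated hairpin and 3.70 to 4.12 with the 2-mutation hairpin, and was 4.85 to 5.08 with the empty vector. Of 18 excitatory neuron genes 9 were lower and 7 higher, with Neurod1 (−1.62) and Neurod2 (−1.10) lower and Mef2c (0.73) and Camk2a (0.84) higher. In bulk samples, fewer cells of a type and less RNA per cell cannot be told apart.

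Presynaptic and potassium channel genes leaned higher, while postsynaptic scaffold and ionotropic glutamate receptor genes were evenly divided. Presynaptic genes were higher in 16 of 34 and lower in 9 (median 0.23). Cplx2, a complexin gene, had 436 to 496 CPM with the unmutated hairpin, 99.1 to 112 CPM with the 2-mutation hairpin and 489 to 564 CPM with the empty vector (log2 fold change 2.18), while its paralogue Cplx1 was lower (−1.11). Erc2 (1.28), with 3 copies of ATGACAA, and Doc2b (1.88) were higher. Postsynaptic scaffold genes were 10 higher and 9 lower of 23 (median 0.02), and the 4 with the smallest p, Shank1 (1.22), Shank3 (0.86), Homer2 (1.35) and Dlg2, were higher. All 14 measured GABA receptor genes passed, beside 72.8% of protein-coding genes. Of these receptor genes 8 were higher and 6 lower (median 0.42), among them Gabra5 (1.42), Gabrg3 (1.17) and Gabra3 (−0.97).

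Of 21 ionotropic glutamate receptor genes 7 were higher and 7 lower (median 0.13), near the shares over all genes (31.2% higher and 31.5% lower), and with library size alone 11 were higher and 6 lower. The 4 with the smallest p, Grin3a (1.75), Cacng3 (1.70), Grin2a (1.19) and the AMPA receptor auxiliary subunit gene Shisa9 (0.72), were among the higher ones. Of 7 metabotropic ones 3 were higher and 1 lower. Grm5 had 336 to 392 CPM with the unmutated hairpin, 97.0 to 105 CPM with the 2-mutation hairpin and 442 to 523 CPM with the empty vector (log2 fold change 1.89). Potassium channel genes were higher in 18 of 31 and lower in 10 (median 0.26), including Kcnd2 (1.53) and Kcnk2 (0.97). Sodium and calcium channel genes were higher in 11 of 23 and lower in 6 (median 0.07, against 0.02 over all genes). Scn2a (0.80) was higher, as was Scn3b, and Cacna1b (−0.66) was lower.

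All 11 nonclustered protocadherin genes, which encode cell adhesion molecules of neurons, passed the test, 8 higher and 3 lower (median 1.47). Over all protein-coding genes 72.8% passed. Pcdh19 had 103 to 149 CPM with the unmutated hairpin, 23.9 to 25.7 CPM with the 2-mutation hairpin and 142 to 176 CPM with the empty vector (log2 fold change 2.39). Pcdh7 (2.26), Pcdh9 (2.16), Pcdh20 (1.95), Pcdh17 (1.55), Pcdh11x (1.47), Pcdh15 (0.94) and Pcdh8 (0.93) were higher, and Pcdh10 (−0.94), Pcdh18 (−0.81) and Pcdh1 (−0.80) lower. Axon guidance genes were higher in 16 of 35 and lower in 11, with the ephrin receptor gene Ephb2 (1.56) and Efnb2 (0.62) higher and Epha3 (−0.84) and Unc5a (−0.66) lower.

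Among 20 neuropeptide and related secretory genes 9 were higher and 7 lower. Grp, gastrin releasing peptide, had 10.1, 7.95, 9.45 and 7.49 CPM with the unmutated hairpin, against 0.212 to 0.430 CPM with the 2-mutation hairpin and 9.88 to 12.5 CPM with the empty vector (log2 fold change 4.62 ± 0.21; edgeR adjusted p = 2.46e-13). The 2-mutation libraries were the low ones. Nxph2 was lower (−2.09), and Chgb (−0.83) and Chga (−0.68), granins of secretory vesicles, were lower too. Transporter genes were split, 8 higher and 8 lower of 18, with the GABA transporter gene Slc6a11 (1.70) and Slc6a17 (1.147) higher and Slc6a15 (−0.65) lower. The growth factor receptor list was higher in 11 of 26 and lower in 5, with Met (2.14) and Igf1r (0.72) higher and Nrg1 (−0.93) lower. Serotonin, dopamine and acetylcholine receptor genes were split, 6 higher and 7 lower of 18, with Htr2c (1.85) and Chrm4 (1.36) higher and Htr1b (−1.11) lower.

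Chromatin regulator genes were higher in 22 of 36 and lower in 9 (median 0.21). Smarca2, an ATPase of the BAF remodelling complex, had 356 to 413 CPM with the unmutated hairpin, 89.6 to 100.4 CPM with the 2-mutation hairpin and 313 to 384 CPM with the empty vector (log2 fold change 2.01), and Chd4, of the NuRD complex, was lower (−1.01). Calcium and calmodulin kinase genes were higher in 12 of 19 and lower in 5 (median 0.31), with Camk2b (0.44) higher and Calm3 (−0.61) lower. Perineuronal net and matrix genes were higher in 8 of 16 and lower in 6, with Has3 (1.50) higher and Spock1 (−1.15) and Ncan (−0.74) lower. Genes that host microRNAs were higher in 10 of 23 and lower in 7, with Rian (−0.77) lower. Of 21 known targets of miR-124 repression 9 were higher and 5 lower, and the count higher fell to 5 without unmutated replicate 4 and to 5 without 2-mutation replicate 2.

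Interferon genes leaned lower and inflammatory genes higher, mostly at low levels. Of 19 measured interferon response and RNA sensor genes 10 were lower and 5 higher (median −0.35), and the count higher fell to 3 without unmutated replicate 2 and to 3 without 2-mutation replicate 1. Among the 13 of these genes with at least 1 CPM in 4 libraries, 6 were lower and 4 higher (median −0.08). Mx1, an antiviral GTPase gene, had 0.0539, 0.0234, 0.102 and 0 CPM with the unmutated hairpin, against 1.24, 1.26, 0.870 and 1.07 CPM with the 2-mutation hairpin and 0.0287 to 0.179 CPM with the empty vector. Its log2 fold change, −4.56 ± 0.45 (SE; edgeR adjusted p = 9.99e-09), rests on a few counts in the unmutated libraries and became −5.31 without unmutated replicate 3. Oasl2 (−3.10) was lower and the RNA-editing enzyme gene Adar (0.52) higher. Of 11 measured inflammatory genes 6 were higher and 1 lower (median 0.75). Lcn2, which encodes the iron-sequestering lipocalin, had 1.59, 5.00, 1.82 and 2.09 CPM with the unmutated hairpin, against 0.107, 0.0248, 0.0941 and 0.107 CPM with the 2-mutation hairpin and 0.143 to 0.417 CPM with the empty vector. Ptgs2 (3.71), Cxcl1 (3.01), Vcam1 (1.60) and Icam1 (1.56) were higher.

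Markers of glia differed as well. Of 18 measured astrocyte markers 12 were higher and 2 lower (median 0.67), and their mean log2 CPM was 5.31 to 5.97 with the unmutated hairpin, 4.58 to 5.17 with the 2-mutation hairpin and 5.29 to 5.80 with the empty vector. The count higher fell to 8 without unmutated replicate 4, and to 8 when 2-mutation replicate 2 or 3 was left out. Aqp4, the water channel of astrocytes, had 37.0, 37.3, 30.8 and 50.1 CPM with the unmutated hairpin, against 5.48, 3.05, 4.61 and 7.19 CPM with the 2-mutation hairpin and 19.1 to 31.6 CPM with the empty vector (log2 fold change 2.92 ± 0.33). Ndrg2 (1.50) and Atp1b2 (1.06) were higher and Clu (−1.07) lower. Of 9 measured oligodendrocyte lineage markers 5 were higher, including Olig1 (1.95) and Olig2 (1.20), and 1 lower, Cnp (−0.73); their mean log2 CPM was 1.87 to 2.08 with the unmutated hairpin, 1.46 to 1.61 with the 2-mutation hairpin and 1.31 to 1.71 with the empty vector. Of 15 microglial markers 6 were measured, 3 higher and 2 lower, with a mean log2 CPM of 0.37 to 0.64 with the unmutated hairpin and 0.06 to 0.36 with the 2-mutation hairpin (0.04 to 0.46 with the empty vector), and Cx3cr1, P2ry12 and Tmem119 did not pass the expression filter. Cd68, a lysosomal membrane protein gene of macrophages, had 9.38, 9.82, 10.1 and 8.88 CPM with the unmutated hairpin, against 4.10, 4.47, 4.42 and 4.23 CPM with the 2-mutation hairpin and 3.78 to 4.16 CPM with the empty vector (2.22-fold higher than with the 2-mutation hairpin; edgeR adjusted p = 5.24e-09). For Cd68 the unmutated libraries were above both other groups. The other microglial markers that were higher did not share this. Csf1r (0.82) had a mean of 1.40 CPM with the unmutated hairpin and 2.42 CPM with the empty vector, and did not pass without unmutated replicate 4. Aif1 (2.03) had 0.28 to 0.38 CPM with the unmutated hairpin and 0.23 to 0.53 CPM with the empty vector. The markers that were lower are not reported here. Of 12 measured endothelial and mural markers 3 were higher and 3 lower. The part of these cells in the differences of other genes was not tested.

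**Figure D5:**
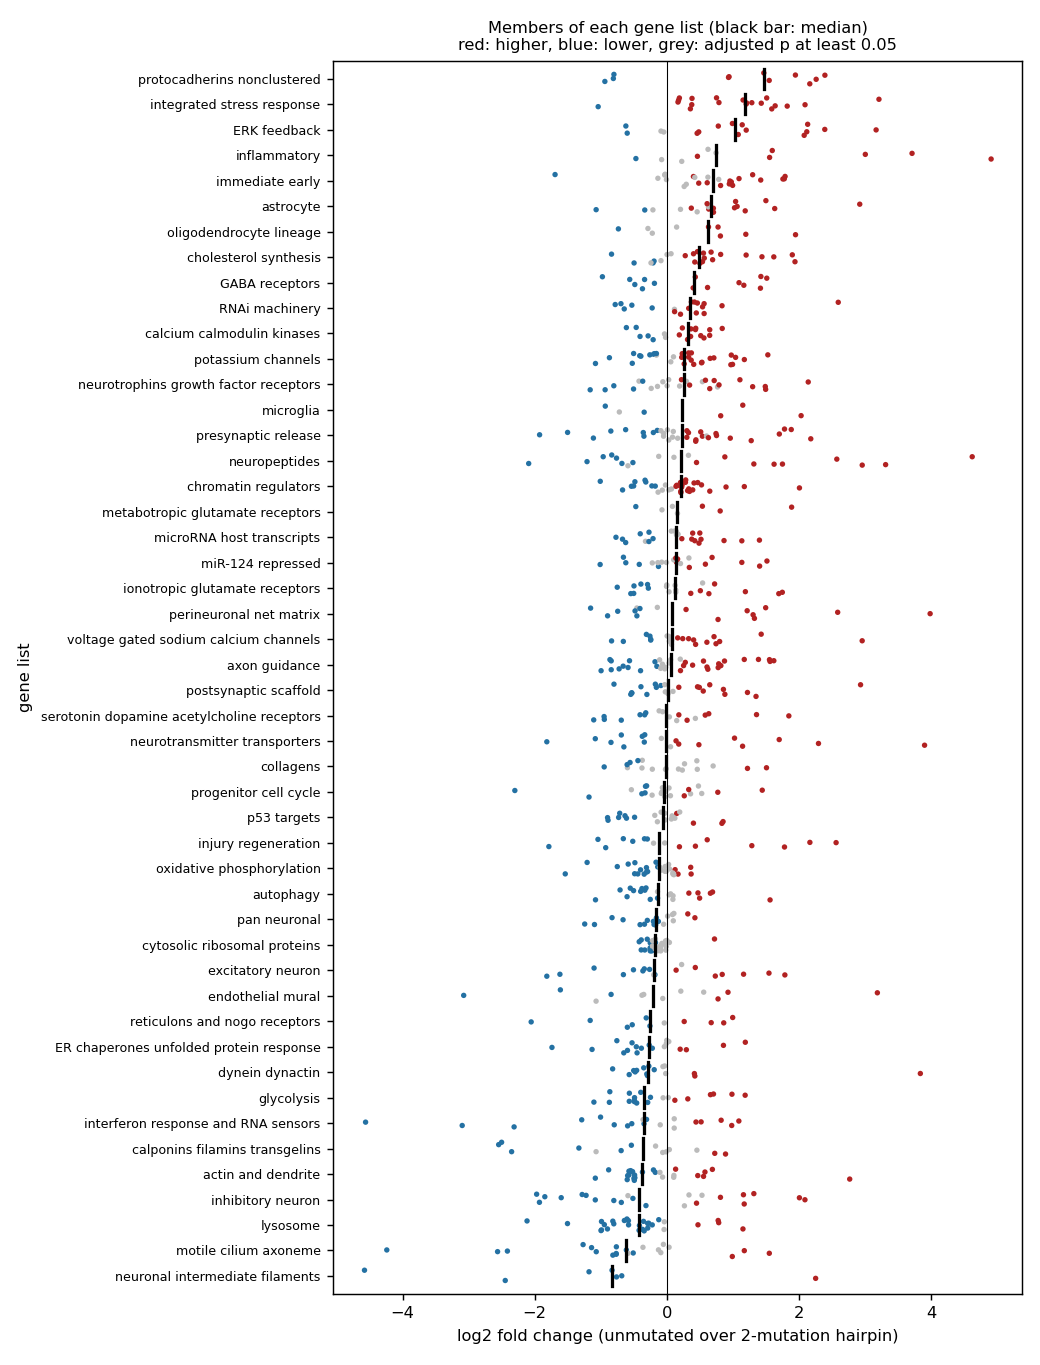
Log2 fold change (unmutated over 2-mutation hairpin) of each measured member of 48 gene lists, ordered by the median of the list (black bar), from 1.47 for nonclustered protocadherins to −0.83 for neuronal intermediate filaments. Red points were higher and blue points lower at an adjusted p below 0.05, and grey points did not pass.

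The remaining lists had no clear lean. Genes of p53 were higher in 4 and lower in 7 of 20, with Bax (0.85) and Sesn1 (0.83) higher and Pmaip1 (−0.90) and Ei24 (−0.63) lower. Progenitor and cell cycle genes were higher in 4 and lower in 6 of 22, among them Hes5 (1.44), Gtse1 and Nes (−1.18). Injury and regeneration genes were higher in 7 and lower in 7 of 16, with Ecel1 (2.56) higher and Sox11 (−0.93) and Stmn4 (−0.66) lower. Collagen genes mostly did not pass, with 2 higher, Col23a1 (1.51) and Col25a1 (1.22), and 4 lower of 18. The count of collagen genes higher was 4 without unmutated replicate 1, and the median of the list (−0.01) changed sign over the settings run (−0.075 to 0.167).

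With library size alone, counts of other lists moved by over 1.5 times as well. Of the autophagy genes 10 were then higher and 10 lower, of the p53 genes 7 were higher and 7 lower, and the count lower was 6 for potassium channels, 4 for genes that host microRNAs, 3 for miR-124 targets and 2 for cholesterol synthesis.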

How the data were processed

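RNA was sequenced from mouse primary forebrain neuronal cultures in 16 libraries, in 4 groups of 4. Per the labels' protocols, 100 ng of total RNA was depleted of ribosomal RNA, fragmented for 10 minutes and made into dUTP strand-marked libraries with 12 PCR cycles. Tools listed, per the submitters' processing notes, were STAR 2.7.2b, cutadapt 1.15, Trim Galore 0.6.0, bcl2fastq 2.20.0.422, featureCounts and edgeR, with the GRCm38.p6 build. The deposited values are raw counts for each gene, as whole numbers. How the counting treated strand and multiply matching reads, and which annotation it used, are not given in the sources used here. Reads of genes that overlap on opposite strands may therefore not be told apart, which touches 45 of the 186 genes named in the report, among them Rtn4, Nefm, Ago2, Rac1, Smarca2, Dnah1 and Nos1.

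After filterByExpr and TMM scaling, edgeR 4.0.16 under R 4.3.3 fitted a robust quasi-likelihood model with 1 coefficient for each of the 4 groups. The 5-mutation libraries entered the fit for its estimate of spread and are not described here. The unmutated minus 2-mutation contrast was tested 2-sided, with Benjamini-Hochberg adjustment over 19479 genes and a threshold of 0.05. Alternatives used DESeq2 1.42.0 and limma voom 3.58.1. Names and 3′ UTRs came from GENCODE vM21 (55154 of 55335 IDs matched), promoters were not used, and microRNA sequences came from RefSeq. In a simulation at the real depth, every group was given the empty-vector profile. At each planted log2 fold change (−1, −0.5, 0.5 and 1), 50 genes with a mean above 50 counts were changed. Of genes planted 2-fold apart, 94% were called. Those planted at a log2 fold change of 0.5 were called in 90% of cases when higher and 80% when lower, and 5.29% of calls were false. The real comparison called 62.7% of genes, far more than were planted, and included genes with fewer counts. These rates may therefore not hold for it. No library was a copy of another of its group: a chi-square of their counts gave 3.48 to 12.7 per degree of freedom, above sampling noise.

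The genes, the lists and the naming rule were chosen with earlier results of these data known. The named genes are Rtn4, the 15 highest and the 15 lowest log2 fold changes among genes called whose mean log2 CPM reached 2, whose groups did not overlap and whose symbol is not a predicted, clone or RIKEN name, the 4 members of each list with the smallest p, and every member of lists of at most 12 measured genes. Gm26917 was chosen after its values were seen. Some genes that meet the rule are not reported here.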

Additional observations from a re-analysis of the deposited data

Results flagged for a closer look

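In 5 groups of 4 libraries, 1 library stood apart from the other three by Dixon's test at the 95% level (the gap to the nearest library over the whole range). Chance gives such a flag in about 1 in 20 groups, and 87 groups were looked at. Acan was at 53.5 CPM in unmutated replicate 3, against 15.8 to 17.5 CPM in the other unmutated libraries. Lcn2 was at 5.00 CPM in unmutated replicate 2, against 1.59 to 2.09 CPM in the others, and at 0.0248 CPM in 2-mutation replicate 2, against 0.0941 to 0.107 CPM in the others. Cplx2 was at 112 CPM in 2-mutation replicate 4, against 99.1 to 99.9 CPM in the others. Dynlt3 was at 7.95 CPM in 2-mutation replicate 3, against 6.53 to 6.74 CPM in the others.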

How the results depend on the processing

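The count of genes called (12215) stayed between 10917 (at least 1 CPM in 4 libraries) and 12953 (no filter) over the alternatives, and between 11706 and 11998 when 1 library was left out. DESeq2 called 12063 and limma voom 12234. The replicate number as a block called 12616, 6255 higher and 6361 lower. Deviations of log2 CPM from the group mean correlated at 0.07 to 0.14 between same-numbered libraries of the 2 hairpins. Between libraries of other numbers they correlated at −0.11 to 0.03. The same-numbered values were not above 0.1 in every pair, so the numbers were not taken as pairs. By these deviations, each unmutated library nevertheless correlated best with its own number, a hint from the data and not from the design. With library size alone, 59.8% of calls were higher, against 49.7% with TMM. Rtn4 kept its direction and call in all settings run. Among the 254 genes named by rule, 18 values of genes that had not passed passed under an alternative, and 7 of genes that had passed no longer did (Abcc9, Csf1r and Ugt8a). Rtn1, which did not pass (−0.04), reversed to 0.08 with library size alone. The p53 list had 7 genes higher, against 4, in 5 settings. The cause was not tested. The coefficients of the 2 words hardly moved without the GC term, and among UTRs of at most 2000 bases the median of genes with a miR-153-3p match was −0.02, against 0.06. Counting error and 4 libraries a group limit low genes such as Mx1 and Lcn2. Log2 fold changes compare the hairpins with each other, and neither is an unperturbed neuron.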

Other observations

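By gene type, with no test of the difference between types, calls were split in different proportions. Of 672 antisense RNA genes tested, 236 were higher and 73 lower with the unmutated hairpin (median log2 fold change 0.39), and of 757 lincRNA genes 273 were higher and 141 lower (median 0.23). Of 14470 protein-coding genes 4868 were higher and 5664 lower (median −0.04). Of 59 small nuclear RNA genes 5 were higher and 20 lower (median −0.29).

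The fifth of protein-coding genes with the longest gene bodies (80587 to 2960900 bases) had a median log2 fold change of 0.06 with 41.3% higher and 34.7% lower, and the fifth with the shortest had a median of −0.04 with 31.3% higher and 36.8% lower.

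Genes with ATGACAAA in the 3′ UTR had a median of 0.47 (570 genes) and those with ATGACAAG 0.27 (415 genes). The genes with the greatest absolute log2 fold change among those that were called and held ATGACAA were Mmp10 (5.61), Lce1g (5.48), Cass4 (4.83), Onecut3 (4.80) and Dynlt3, all higher with the unmutated hairpin, and among those with ATGAAAC Ifi209 (4.89), Lce1i (4.58), C4bp (4.03) and Tktl2 (3.88) were higher and Olfr1369-ps1 (−3.89) lower. Apart from Dynlt3, their mean level over the 8 libraries was below 1 CPM.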
